A study of Mus musculus with 13 samples.

Results

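Chemokines are small secreted proteins that draw leukocytes into tissue, and this report follows 10 of their genes in the mouse submandibular gland (SMG), a major salivary gland. The genes were chosen by name: Ccl28, Cxcl12, Cxcl14, Cxcl13, Ccl8, Cxcl10, Cxcl9, Ccl5, Ccl19 and Ccl11, of 48709 genes in the count table. The authors' normalised table held 9 of them. Ccl19, with 6 reads over all libraries, had no row there and could not be tested. RNA sequencing covered 13 gland libraries from mice of the strain labelled CH3, 1 year old, harvested 300 days after treatment. NonIR (3 libraries) was not irradiated. PreIR-GFP (5 libraries) received AAV2-GFP, an adeno-associated virus carrying a fluorescent marker, 10 days before the glands were irradiated. PreIR-NTN (5 libraries) received Cere-120, that is AAV2-NRTN, which carries the neurotrophic factor neurturin, on the same schedule. The sources used here leave unsaid whether NonIR glands were given a vector, so irradiation and vector cannot be told apart in comparisons with NonIR. No label says that replicates came from separate animals, and p-values therefore measure only the spread between these libraries.

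Chemokines act through G protein-coupled receptors on their target cells. Homeostatic chemokines, such as the epithelial Ccl28 and Cxcl14 and the stromal Cxcl12, are made in resting tissue, where Ccl28 in exocrine glands attracts IgA-secreting plasma cells through Ccr10. Cxcl13 and Ccl19 organise lymphoid tissue by drawing B cells through Cxcr5 and T and dendritic cells through Ccr7. Cxcl9 and Cxcl10 are induced by interferon gamma and call activated T cells through Cxcr3, while Ccl5, Ccl8 and Ccl11 attract T cells, monocytes and eosinophils in inflammation.

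Cxcl9 and Cxcl10 lie close together on chromosome 5 and were both highest in the same library, as described further on. For this reason the 250 bases before each start are shown, from RefSeq on GRCm38.p6, both on the minus strand and read 5′ to 3′ towards the start: chr5:92348890-92349139 for Cxcl10 and chr5:92328080-92328329 for Cxcl9. Capitals mark a match to the core of the interferon-stimulated response element (ISRE), searched as GAAA, any 2 bases and GAAA on either strand.
Cxcl10: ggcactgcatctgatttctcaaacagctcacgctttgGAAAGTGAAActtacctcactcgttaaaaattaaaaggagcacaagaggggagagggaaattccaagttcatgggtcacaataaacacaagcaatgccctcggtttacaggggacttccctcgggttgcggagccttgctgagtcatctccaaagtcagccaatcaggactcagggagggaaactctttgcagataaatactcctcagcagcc
Cxcl9: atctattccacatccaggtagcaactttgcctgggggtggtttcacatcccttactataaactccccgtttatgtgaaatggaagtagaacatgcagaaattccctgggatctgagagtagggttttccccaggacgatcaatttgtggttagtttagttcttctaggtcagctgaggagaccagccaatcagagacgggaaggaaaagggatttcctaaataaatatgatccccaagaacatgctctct
The Cxcl10 match lay 213 to 204 bases before the start, and the Cxcl9 window held no match. Such a match occurred in 2.98% of 32851 RefSeq promoter windows of this length. Of the 8 members with a promoter entry, Cxcl10, Cxcl14 and Ccl19 held an ISRE core. The Ccl19 window, chr4:42756366-42756615, lay mostly inside the annotated Ccl19 gene, chr4:42754525-42756577, and so did its match. The 2 sources thus place the Ccl19 start differently. The bases after the Cxcl13 window were not found in its annotated transcripts. Cxcl14 alone of the 8 held the gamma-activated site core (TTC, any 3 bases and GAA), found in 7.02% of all windows. A match to letters is a description and not evidence of binding.

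The libraries held 9724304 to 16771004 reads. Values below are CPM, that is read counts divided by library size with scaling by the trimmed mean of M-values (TMM), on which 3 reads came to between 0.176 and 0.253 CPM. Gland genes marked every library as salivary: Car6, a secreted salivary carbonic anhydrase, ran from 60998 to 140775 CPM. Some libraries stood apart. PreIR-GFP 1 had the lowest depth, the lowest Smgc at 17060 CPM and the highest summed fibroblast markers, and PreIR-GFP 2 carried the skeletal muscle gene Acta1 at 80.9 CPM against at most 0.79 CPM elsewhere. PreIR-GFP 5 was highest in summed B cell markers, and in summed macrophage markers through Adgre1: without that gene its sum was 206 CPM, below the 211 CPM of PreIR-GFP 2. Acta1 belongs to a fixed list of neighbouring-tissue genes. Of that list, Amy1 reached 273 CPM in NonIR 3, beside a median of 25.2 CPM over all libraries. Muc19 reached 17.3 CPM in PreIR-NTN 1, beside a median of 1.27 CPM. Whether neighbouring tissue was carried into these libraries was not tested. Car6, Smgc, Acta1, Amy1 and Muc19 were picked out after their values were seen. In bulk tissue, fewer cells of a type and less RNA per cell cannot be told apart.

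**Figure D1:**
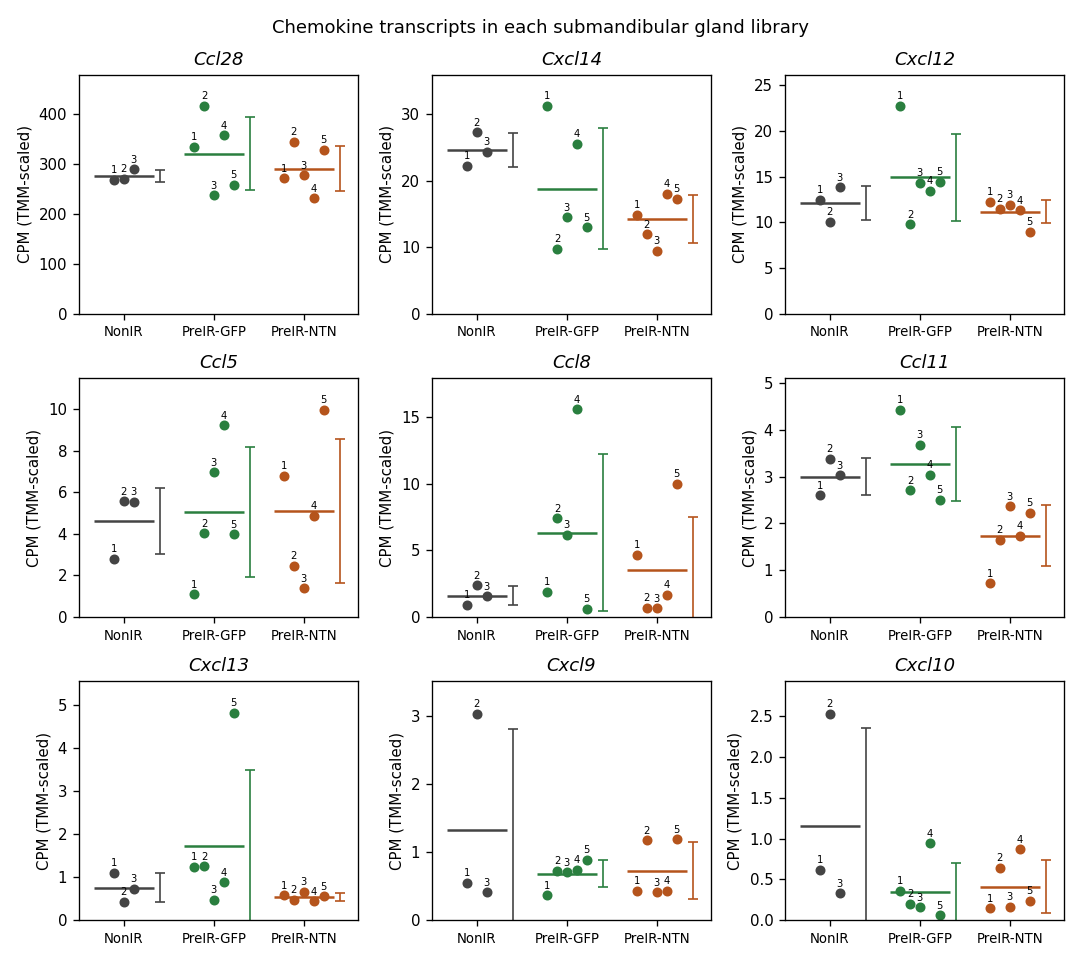
Each panel plots 1 chemokine on the y axis in TMM-scaled CPM for NonIR, PreIR-GFP and PreIR-NTN libraries; numbers are replicate labels, lines are means and bars at the side are ± SD, cut off at 0 where they would pass below it. Ccl28 stays between 232 and 417 CPM, whereas Cxcl13 in PreIR-GFP 5 and Cxcl9 and Cxcl10 in NonIR 2 lie far above the other libraries.

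Ccl28 was the most abundant of the 10 transcripts in every group. Per kilobase of annotated exon, the scale used here for comparing genes, its mean level in NonIR was 57.0 CPM per kb. Cxcl14 followed at 13.5, Ccl5 at 4.84, Ccl8 at 3.13, Ccl11 at 2.77, Cxcl12 at 1.48, Cxcl13 at 0.653, Cxcl10 at 0.514, Cxcl9 at 0.441 and Ccl19 at 0.0628 CPM per kb. The libraries overlapped between Ccl5 and Ccl8, between Ccl8 and Ccl11, between Cxcl13 and Cxcl10, between Cxcl10 and Cxcl9 and between Cxcl9 and Ccl19, so those places in the order are not separated beyond the spread. In PreIR-GFP, Ccl28 stood at 66.3 CPM per kb and Ccl8 came next in order at 12.4 CPM per kb. Ccl8 overlapped Cxcl14 there at 10.3 CPM per kb, and its mean was 7.85 CPM per kb without PreIR-GFP 4. In PreIR-NTN, Cxcl14 at 7.81 CPM per kb came before Ccl8 at 6.92 CPM per kb, again overlapping. Unlike in NonIR, Ccl8 there stood above Ccl5, which was at 5.31 CPM per kb and overlapped it. Without PreIR-NTN 5 the PreIR-NTN means were 3.76 CPM per kb for Ccl8 and 4.04 CPM per kb for Ccl5. Variation over the 13 libraries also set the genes apart: the highest library exceeded the lowest by 1.80-fold for Ccl28, 2.53-fold for Cxcl12 and 3.30-fold for Cxcl14, but by 26.2-fold for Ccl8 and 42.6-fold for Cxcl10. The last ratio starts from 1 read in PreIR-GFP 5.

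No chemokine differed between groups at an adjusted p under 0.05 in edgeR's quasi-likelihood test, fitted over 14727 genes. In all, 0 of 9 members passed in PreIR-GFP against NonIR, where 0.034% of all genes were called. The count was likewise 0 of 9 in PreIR-NTN against PreIR-GFP and in PreIR-NTN against NonIR, each against 0.0204% of all genes. Before adjustment, 1, 3 and 2 members had p under 0.05 in these comparisons, all lower in the group named before "against". The corresponding shares of all genes that were lower at that level were 3.43%, 3.73% and 3.69%. The members' median log2 fold changes were 0.13, -0.39 and -0.51, beside 0.02, -0.01 and 0.00 over all genes tested. These medians moved with single libraries. In PreIR-GFP against NonIR the median was 0.04 without NonIR 1, 0.21 without NonIR 2 and 0.25 without NonIR 3. In PreIR-NTN against PreIR-GFP it was -0.19 without PreIR-GFP 1 and, likewise, without PreIR-GFP 4. In PreIR-NTN against NonIR it was -0.11 without NonIR 1 and -0.18 without NonIR 2. Both comparisons with NonIR use the same 3 libraries, and PreIR-GFP enters 2 of the comparisons, so these counts are not independent. The count of members called stayed at 0 of 9 in each comparison without PreIR-GFP 1 and PreIR-GFP 2, and without NonIR 2 and PreIR-GFP 5.

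**Figure D2:**
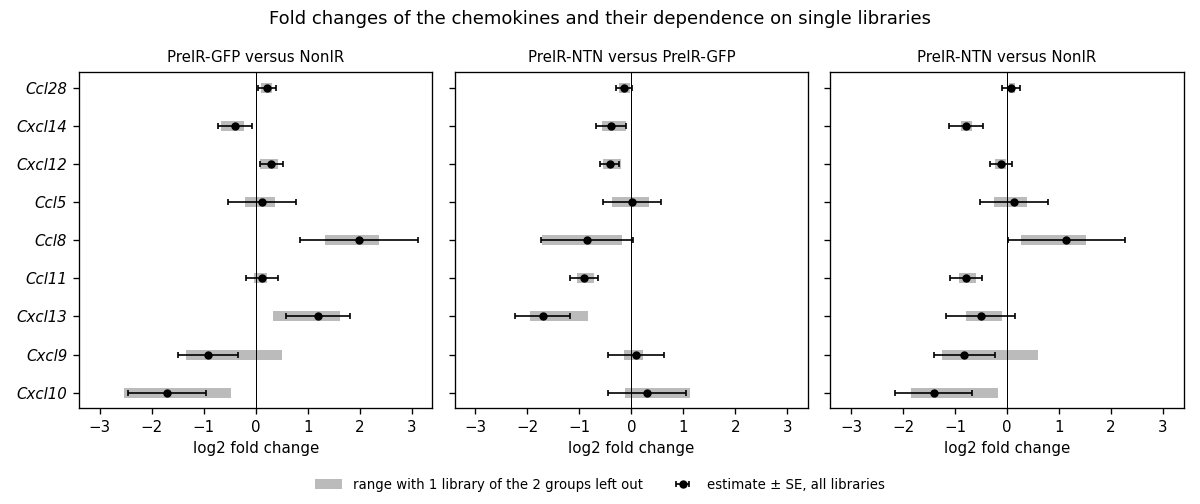
Points give each chemokine's log2 fold change (x axis) with its SE in the 3 comparisons; grey bands span the values obtained when 1 library of the 2 groups is left out. The bands of Cxcl9 in both comparisons with NonIR cross 0, and that of Ccl11 in PreIR-NTN versus PreIR-GFP runs from -1.04 to -0.71.

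Ccl28 (chr13:119623819-119654359, plus strand, GRCm38) kept a high level in all groups. It measured 268, 270 and 289 CPM in NonIR, a mean of 276 ± 11.6 (SD, n = 3). PreIR-GFP libraries 1 to 5 held 335, 417, 238, 358 and 258 CPM, and PreIR-NTN held 272, 345, 278, 232 and 328 CPM. All NonIR values lay inside the range of each irradiated group. The log2 fold change was 0.22 (SE 0.177, adjusted p = 0.781) in PreIR-GFP against NonIR and -0.14 (SE 0.152, adjusted p = 0.971) in PreIR-NTN against PreIR-GFP. The 95% interval of the latter ran from 0.724-fold to 1.13-fold. Without PreIR-GFP 1 and PreIR-GFP 2 the estimate was 0.063. The receptors of Ccl28 were barely detected: Ccr10 had at most 3 reads in any library and Ccr3 had 1 read in all.

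Cxcl14 (chr13:56288643-56296551, minus strand), an epithelial chemokine of resting tissue, was lower in every PreIR-NTN library than in every NonIR library. It measured 22.2, 27.3 and 24.4 CPM in NonIR. In PreIR-NTN it measured 14.8, 11.9, 9.45, 18.0 and 17.2 CPM. PreIR-GFP spanned both at 31.2, 9.77, 14.5, 25.5 and 12.96 CPM. PreIR-NTN against NonIR gave a log2 fold change of -0.79 (SE 0.323, adjusted p = 0.581), with a 95% interval from -1.48 to -0.09. The exact two-sided permutation p over these libraries was 0.0357. The estimate stayed between -0.88 and -0.67 when any 1 library of the pair of groups was left out. In PreIR-GFP against NonIR the log2 estimate was -0.39 (adjusted p = 0.790) and moved to -0.67 without PreIR-GFP 1, the highest library. PreIR-NTN against PreIR-GFP gave -0.39 on the log2 scale (adjusted p = 0.909), and -0.11 without PreIR-GFP 1.

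Cxcl12 (chr6:117168535-117181367, plus strand), made by fibroblasts and other stromal cells, was 12.5, 10.0 and 13.8 CPM in NonIR. PreIR-GFP held 22.7, 9.77, 14.3, 13.4 and 14.4 CPM. PreIR-NTN held 12.3, 11.4, 11.9, 11.3 and 8.96 CPM. PreIR-GFP 1 was the highest library by a wide margin, and the groups overlapped. The log2 fold change of PreIR-NTN against PreIR-GFP was -0.42 (SE 0.187, adjusted p = 0.804), and -0.19 without PreIR-GFP 1. That of PreIR-GFP against NonIR was 0.30 (adjusted p = 0.741), and 0.09 without PreIR-GFP 1. The same library held the highest summed fibroblast markers, 423.9 CPM over a list of 12 genes that includes Cxcl12. Its receptors were modest in level: Cxcr4 lay between 0.20 and 0.73 CPM and the scavenging receptor Ackr3 between 2.22 and 5.08 CPM, with 0 calls in any comparison.

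Ccl11 (chr11:82057823-82062955, plus strand), the eosinophil attractant eotaxin, was lower in PreIR-NTN than in either other group without overlap. NonIR libraries measured 2.60, 3.38 and 3.02 CPM. PreIR-GFP measured 4.42, 2.71, 3.67, 3.03 and 2.496 CPM. PreIR-NTN measured 0.717, 1.64, 2.36, 1.74 and 2.22 CPM, so its highest library stayed below the lowest of the other 8. The group means were 3.27 ± 0.785 CPM in PreIR-GFP and 1.74 ± 0.647 CPM in PreIR-NTN (SD, n = 5 each). The log2 fold change was -0.91 (SE 0.270, adjusted p = 0.567), with a 95% interval from -1.49 to -0.34, and did not pass the test over all genes. The exact two-sided permutation p was 0.00794, the smallest that 5 libraries against 5 can give. Non-overlap in this direction held for 1 of 9 members and for 0.72% of all genes tested. Against NonIR the estimate was -0.79 on the log2 scale (SE 0.308, adjusted p = 0.551). Non-overlap with PreIR-NTN below NonIR held for 2 of 9 members, Ccl11 and Cxcl14, and for 3.3% of all genes tested. Leaving out PreIR-NTN 1, the lowest library, moved the log2 estimates to -0.71 against PreIR-GFP and -0.59 against NonIR. PreIR-GFP and NonIR did not separate, at 0.12 (SE 0.303, adjusted p = 0.952). Its receptor Ccr3 had 1 read in the whole series.

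Levels of fibroblast and macrophage markers are given beside these values. The summed fibroblast list was 172 to 221 CPM in PreIR-NTN, 264 to 424 CPM in PreIR-GFP and 257 to 304 CPM in NonIR. The list includes the member Cxcl12, and its gene Dcn alone ran from 95.3 to 241 CPM over all libraries. All 12 fibroblast genes had estimates below 0 in PreIR-NTN against PreIR-GFP, with a median log2 fold change of -0.55. Before adjustment, 8 of the 12, Cxcl12 among them, were lower at p under 0.05, beside 3.73% of all genes tested. Without PreIR-GFP 1 the count was 4 of the 12. With all libraries, the matrix gene Dpt alone of the 12 passed the test, with a log2 fold change of -1.33 (adjusted p = 0.0175). It did not pass without PreIR-GFP 1, PreIR-NTN 1, PreIR-NTN 4 or PreIR-NTN 5, where 0 genes were called. Summed macrophage markers were 121 to 168 CPM in PreIR-NTN, 171 to 259 CPM in PreIR-GFP and 176 to 186 CPM in NonIR, and 0 of 16 passed. In PreIR-NTN against PreIR-GFP, 15 of the 16 macrophage genes had estimates below 0. Before adjustment, 8 were lower at p under 0.05, beside 3.73% of all genes tested. Estimates in that comparison were also below 0 for 13 of 16 T and NK cell genes and 7 of 8 B cell genes. The same held for 7 of 8 plasma cell and IgA transport genes, and 0 genes of these lists passed. The median log2 fold change over all genes tested was -0.01. PreIR-GFP 5 was the highest library for 8 of 11 B cell genes and 8 of 18 T and NK cell genes. PreIR-GFP 1 was highest for 4 of 10 plasma cell and IgA transport genes. These counts without single libraries are not reported here. The part of these cell types in the lower Ccl11 and Cxcl14 was not tested.

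Cxcl13 (chr5:95956951-95961068, plus strand), the B cell attractant of lymphoid follicles, stood out in 1 library. It measured 1.09, 0.422 and 0.735 CPM in NonIR. PreIR-GFP held 1.23, 1.25, 0.469 and 0.877 CPM in libraries 1 to 4, and 4.81 CPM (81 reads) in library 5. PreIR-NTN held 0.574, 0.469, 0.652, 0.435 and 0.555 CPM. The log2 fold change of PreIR-NTN against PreIR-GFP was -1.71 (SE 0.535, adjusted p = 0.620), and -0.83 without PreIR-GFP 5. That of PreIR-GFP against NonIR was 1.20 (SE 0.612, adjusted p = 0.604), and 0.34 without that library.

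PreIR-GFP 5 also carried some transcripts of lymphoid tissue, which were picked out after their values were seen. Of the fixed list of lymphoid organ stroma genes, 8 of the 16 with a read were highest there, and the list's sum of 78.5 CPM lay below the 86.4 CPM of PreIR-GFP 1 and the 84.3 CPM of PreIR-GFP 2. Glycam1, a ligand made by high endothelial venules of lymph nodes, was 4.28 CPM (72 reads) there and at most 0.22 CPM in any other library. Ccr7, the receptor for Ccl19, was 4.22 CPM there and at most 1.03 CPM elsewhere. The B cell receptor component Cd79a was 4.40 CPM and the lymphatic chemokine Ccl21a 1.37 CPM, each the highest of the 13. The summed list of 11 B cell genes was 100.2 CPM in PreIR-GFP 5, against 27.8 to 69.2 CPM in the other PreIR-GFP libraries, 26.2 to 45.3 CPM in NonIR and 13.8 to 58.5 CPM in PreIR-NTN. Adgre1, which encodes the macrophage marker F4/80, reached 52.9 CPM there. Cxcr5, the receptor for Cxcl13, was not set apart, with 1.84 CPM in PreIR-GFP 5 and 0.55 to 2.12 CPM over all libraries. Whether these genes share a source in that library was not tested.

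Ccl19 (chr4:42754525-42756577, minus strand), which guides T cells and dendritic cells, was all but undetected. It had 2 reads in NonIR 3, 1 read in each of PreIR-GFP 4 and PreIR-GFP 5, 2 reads in PreIR-NTN 4 and 0 in the other 9 libraries. A count of 0 allows up to 3 reads, or 0.176 to 0.253 CPM depending on the library, so no comparison between groups was possible at this depth. Mouse Ccl19 also has close pseudogene copies, which adds uncertainty to so few reads.

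**Figure D3:**
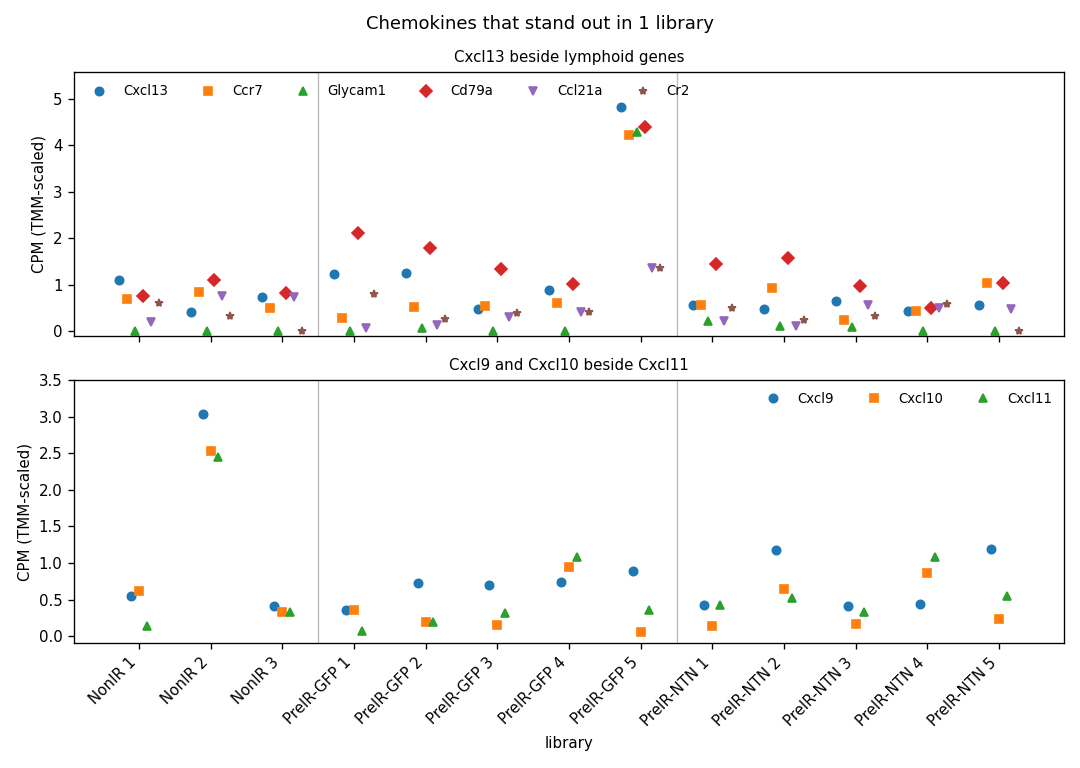
TMM-scaled CPM (y axis) in each of the 13 libraries (x axis): above, Cxcl13 with the lymphoid genes Ccr7, Glycam1, Cd79a, Ccl21a and Cr2; below, Cxcl9 and Cxcl10 with Cxcl11. PreIR-GFP 5 holds the highest value of every gene in the upper panel, and NonIR 2 of every gene in the lower panel.

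Cxcl9 (chr5:92321347-92328079, minus strand) and Cxcl10 (chr5:92346638-92348889, minus strand), the Cxcr3 ligands induced by interferon, were highest in NonIR 2, an unirradiated library. Cxcl9 measured 0.547, 3.04 and 0.409 CPM in NonIR. It was 0.363, 0.726, 0.704, 0.742 and 0.892 CPM in PreIR-GFP and 0.430, 1.17, 0.407, 0.435 and 1.19 CPM in PreIR-NTN. Cxcl10 measured 0.616, 2.53 and 0.327 CPM in NonIR. It was 0.363, 0.198, 0.156, 0.944 and 0.0594 CPM in PreIR-GFP and 0.143, 0.645, 0.163, 0.870 and 0.238 CPM in PreIR-NTN. Cxcl11, the remaining Cxcr3 ligand, was 2.45 CPM in NonIR 2 and at most 1.09 CPM elsewhere. NonIR 2 alone set the direction for Cxcl9. Its log2 fold change of PreIR-GFP against NonIR was -0.91 (SE 0.583, adjusted p = 0.695) and turned to 0.51 without NonIR 2. Its log2 fold change of PreIR-NTN against NonIR was -0.82 (adjusted p = 0.776) and turned to 0.60.

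Cxcl10 kept its direction but lost most of its size. Its log2 fold change was -1.71 (SE 0.755, adjusted p = 0.538) in PreIR-GFP against NonIR and -0.48 without NonIR 2, while leaving out PreIR-GFP 4 gave -2.53. For PreIR-NTN against NonIR it was -1.41 (SE 0.739, adjusted p = 0.678) and -0.18 without NonIR 2. Between PreIR-NTN and PreIR-GFP, Cxcl9 and Cxcl10 gave 0.09 and 0.30 on the log2 scale (adjusted p = 0.998 for each), with 95% intervals from -1.05 to 1.23 and from -1.30 to 1.90. Cxcl10 lies within the span of Art3 on the opposite strand, which had 426 reads in all. No source used here states whether reads were counted by strand, so reads of the pair cannot be told apart. Cxcr3 reached 2.36 CPM in NonIR 2, below the 2.73 CPM of PreIR-GFP 5.

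A fixed list of 21 interferon gamma response genes was not highest in the library with the highest Cxcl9 and Cxcl10. Its summed level was 957 CPM in NonIR 2, above 563 and 443 CPM in the other NonIR libraries. The highest sum, 1688 CPM, was in PreIR-GFP 4, where Cxcl10 was 0.944 CPM. Gbp3, picked out after its values were seen, alone ran from 141 to 745 CPM over all libraries. PreIR-GFP 4 was the highest library for 17 of the 21 genes and NonIR 2 for 0. The share of all genes highest in these libraries is not reported here. Of the 18 list genes tested, 0 passed in any comparison. Estimates were below 0 for 17 of 18 in PreIR-NTN against PreIR-GFP, with a median log2 fold change of -0.58 beside -0.01 over all genes tested. Without PreIR-GFP 4 the median was -0.15, with 15 of 18 below 0.

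Ccl8 (chr11:82115185-82116799, plus strand), of the monocyte chemoattractant family, had the widest spread of the better-covered members. It measured 0.890, 2.36 and 1.55 CPM in NonIR. PreIR-GFP held 1.89, 7.39, 6.18, 15.6 and 0.594 CPM. PreIR-NTN held 4.66, 0.704, 0.652, 1.67 and 9.99 CPM. Each irradiated group thus contained libraries below and libraries well above the NonIR range. The log2 fold change was 1.99 (SE 1.136, adjusted p = 0.665) in PreIR-GFP against NonIR, and 1.33 without PreIR-GFP 4. It was 1.14 (SE 1.126, adjusted p = 0.852) in PreIR-NTN against NonIR, and 0.27 without PreIR-NTN 5. In PreIR-NTN against PreIR-GFP it was -0.85 (SE 0.880, adjusted p = 0.969), -0.19 without PreIR-GFP 4 and -1.72 without PreIR-NTN 5. Its paralogs Ccl7, Ccl11 and Ccl12 are similar in sequence, so some reads could have been split among them. Ccl7 was also highest in PreIR-GFP 4, at 2.43 CPM, while Ccl12, picked out after its values were seen, was highest in PreIR-NTN 5, at 2.93 CPM.

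Ccl5 (chr11:83525778-83530518, minus strand), made by T and NK cells, was present in every library, and its groups overlapped throughout. It measured 2.81, 5.57 and 5.56 CPM in NonIR. PreIR-GFP held 1.09, 4.03, 6.96, 9.24 and 3.98 CPM and PreIR-NTN held 6.81, 2.46, 1.38, 4.86 and 9.99 CPM. Group means were 4.64 ± 1.59 (SD, n = 3), 5.06 ± 3.13 and 5.10 ± 3.45 CPM (SD, n = 5 each). The log2 fold changes were 0.13 (SE 0.657, adjusted p = 0.979) in PreIR-GFP against NonIR and 0.01 (SE 0.564) in PreIR-NTN against PreIR-GFP. The interval of the latter, from 0.429-fold to 2.37-fold, leaves room for a sizeable difference either way. That estimate ran from -0.38 without PreIR-NTN 5 to 0.34 without PreIR-GFP 4 on the log2 scale.

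Correlations between members were taken over 36 pairs, of which 0 passed with all libraries and 2 had an unadjusted p under 0.05. After group means were removed, the log2 CPM of Ccl8 and Ccl5 had a Pearson r of 0.76 over 13 libraries (permutation p = 0.0144, adjusted over the pairs 0.259). Spearman's rho was 0.86 (permutation p = 0.00332, adjusted 0.0907). Leaving out PreIR-GFP 5 and PreIR-NTN 5, the libraries farthest from the median of Ccl8, gave r = 0.87. With PreIR-GFP 5 alone left out r was 0.92, and this was the 1 pair to pass in that setting. Without PreIR-NTN 5 alone r was 0.70. With group means kept r was 0.69, and 0.53 without PreIR-GFP 4 and PreIR-NTN 5. The other pair with an unadjusted p under 0.05 was Cxcl12 with Cxcl9, at r = -0.60 (permutation p = 0.00924, adjusted 0.259) and rho = -0.80 (adjusted 0.0907). Without PreIR-GFP 1 and PreIR-GFP 2 that r was -0.82. Cxcl9 and Cxcl10 gave r = 0.46 (permutation p = 0.251, adjusted 0.822), and 0.16 without NonIR 2 and PreIR-GFP 4.

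**Figure D4:**
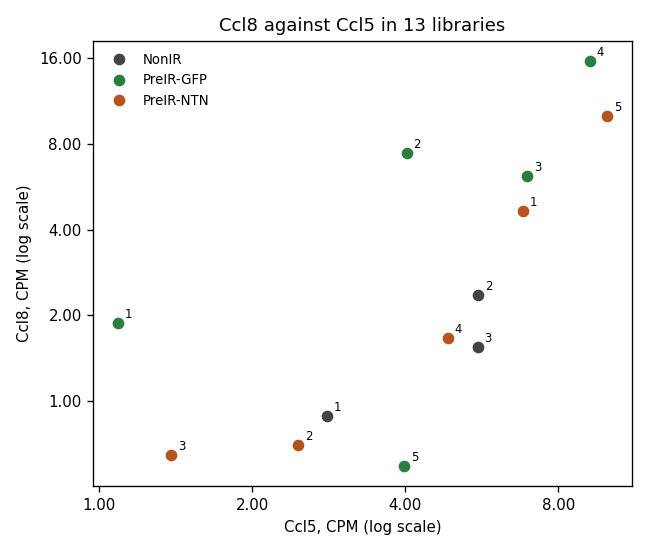
Ccl8 (y axis) against Ccl5 (x axis), both in TMM-scaled CPM on log scales, with 1 point per library coloured by group and numbered by replicate. The highest Ccl5 libraries, PreIR-NTN 5 at 9.99 CPM and PreIR-GFP 4 at 9.24 CPM, are also the highest in Ccl8. PreIR-GFP 2 and PreIR-GFP 5 have near-equal Ccl5, at 4.03 and 3.98 CPM, but Ccl8 of 7.39 and 0.594 CPM.

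The genes whose levels most resembled each member were taken by Pearson r of log2 CPM over the 13 libraries, among 12988 genes of at least 1 CPM on average. Ccl28 was most like Gm4951 (r = 0.84), Parp9 (0.82) and Oas2 (0.81), of which Parp9 and Oas2 are known as interferon-induced. Ccl8 was most like Ifitm3 (r = 0.94), an interferon-induced membrane protein, Atp6v1g3 (0.91) and Stk40 (0.91). Cxcl13 was most like Cd48 (r = 0.91), Dock2 (0.86) and Adgre1 (0.86), all leukocyte genes. Without the 2 libraries farthest from the median of Cxcl13, its r with Adgre1 was 0.35. Leaving out the 2 farthest libraries in the same way gave 0.21 for Cxcl9 with Klhl20, 0.38 for Ccl11 with Crebbp and 0.56 for Ccl28 with Oas2. Cxcl12 was most like Mrrf (0.93), the collagen gene Col6a6 (0.87) and Zfp536 (0.85), and Cxcl14 was most like Ifi205 (0.83), Praf2 (0.82) and Ccdc157 (0.81). Cxcl9 was most like Klc2 (0.79), the guanylate-binding protein gene Gbp2b (0.75) and Klhl20 (0.74). Cxcl10 was most like Tmem50b (0.90), Sqle (0.88) and Gm3571 (0.85). Ccl5 was most like Abhd11os (0.92), Gm43712 (0.91) and Mad2l2 (0.91), and Ccl11 was most like Cadps2 (0.91), Eef1akmt2 (0.87) and Crebbp (0.86). Every such r is taken over the same libraries, and their depth and composition enter it as well. The genes named for each member were those ranked highest by r among 12988 candidates over only 13 libraries. How high the best r would be among that many unrelated genes was not tested. The gene functions given here, interferon induction among them, describe genes picked in this way, and no shared function was tested.

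The remaining chemokines and the receptors showed no call. Of 28 other chemokine genes, 12 passed the filter on low counts and 0 passed the test in any comparison. Ccl6, a myeloid chemokine, had the lowest p of the list in PreIR-NTN against PreIR-GFP, with a log2 fold change of -1.11 (adjusted p = 0.608). Of 22 receptor genes, 13 were tested and 0 passed. Ccr9, a receptor of gut-homing lymphocytes, had a log2 fold change of 1.01 in PreIR-GFP against NonIR (adjusted p = 0.327). The monocyte receptor Ccr2 had a log2 fold change of -0.90 in PreIR-NTN against PreIR-GFP (adjusted p = 0.796). Estimates were below 0 for 11 of the 13 receptors in that comparison, with a median log2 fold change of -0.29 beside -0.01 over all genes tested. PreIR-GFP 1 held the highest Ccr2, 9.50 CPM beside a median of 2.44 CPM over all libraries. It was also the highest library for 7 of the 21 receptor genes with a read. How far the receptor estimates rest on PreIR-GFP 1 is not reported here.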

How the data were processed

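The deposited count table holds whole-number counts of reads per gene, raw and with no normalisation, for 13 libraries made with the SMART-Seq v4 and Nextera XT kits and sequenced on an Illumina NextSeq, per the labels' protocols. STAR 2.5.2a, GRCm38.p3 and mm10, and DESeq2, edgeR and limma are named without a role in the submitters' processing notes. No source used here names the counting tool or its use of strand. The second deposited table holds a normalised signal for 17957 entries. Its values were the counts divided by 1 factor per library, and each entry had at least 6 reads in at least 1 library. They matched the TMM-scaled CPM computed here to a ratio between 0.993 and 1.01. The design text of the series names another sequencer and other aligners, which do not match the labels.

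Counts were fitted with edgeR 4.0.16 in R 4.3.3 (filterByExpr, TMM factors, robust quasi-likelihood test, all 13 libraries in a single fit), with Benjamini-Hochberg adjustment over 14727 genes and a threshold of 0.05. Entries that name no gene (24 of 48733, at most 5.85e-05% of a library's reads) were left out. Exact two-sided permutation tests used mean log2 CPM with a prior count of 2. Correlations used 100000 permutations. On simulated counts, with 1 common dispersion of 0.07 for all genes, the fit was tested for known changes in each comparison. Genes of wider spread were not simulated, and the outcome is not reported here. Libraries of a group differed by at least 29.0 in chi-square per degree of freedom, so none was a copy of another. Alternatives were DESeq2 1.42.0, limma-voom, limma on the deposited signal, other scaling, filters and prior count, a replicate block and leaving out libraries. Positions come from GENCODE M21 and promoters from RefSeq (8 of 10 members had an entry). Intervals cover the spread between libraries, and the limit for 0 reads covers counting error only.

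All 10 members are named. Other genes are named where they are textbook receptors of a member, pass the threshold, are among the 3 lowest p of a fixed list in a comparison described, or are among the 3 most alike in level, and any other is said to be picked out after its values were seen. The members and lists were chosen with earlier results of these data known. Some genes covered by this rule are not reported here.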

Additional observations from a re-analysis of the deposited data

Results flagged for a closer look

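Among 18 sets of 5 libraries (9 chemokines in PreIR-GFP and in PreIR-NTN), 2 had a library far from the other 4 by Dixon's criterion, where chance flags about 1 in 20 sets. Cxcl13 in PreIR-GFP 5 was 4.81 CPM, beside 0.469 to 1.25 CPM in the other PreIR-GFP libraries, and its gap was 0.819 of the group's range against a critical value of 0.71. Cxcl12 in PreIR-NTN 5 was 8.96 CPM, beside 11.3 to 12.3 CPM in the other PreIR-NTN libraries, with a gap of 0.712 of the range. NonIR has 3 libraries and was not examined in this way, so NonIR 2 for Cxcl9 and Cxcl10 is outside the count.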

How the results depend on the processing

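Of 715 alternative values for the 27 fold changes of the members, 673 kept their direction and their side of the threshold and 40 reversed. The other 2, Cxcl10 in PreIR-GFP against NonIR and Cxcl12 in PreIR-NTN against PreIR-GFP, had an unadjusted p under 0.05 in edgeR and not in the exact permutation test. No member passed in any setting, and the lowest adjusted p was 0.253, for Ccl11 in PreIR-NTN against PreIR-GFP with DESeq2.

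The count of all genes called depended on the setting. In the order PreIR-GFP against NonIR, PreIR-NTN against PreIR-GFP and PreIR-NTN against NonIR, edgeR called 5, 3 and 3 genes, DESeq2 68, 39 and 31, and limma-voom 0, 0 and 1. At an unadjusted p under 0.05, edgeR gave 1293, 896 and 1174 and limma-voom 1143, 833 and 1076. Upper quartile scaling gave 0 in PreIR-GFP against NonIR (1259 unadjusted). Without the filter on low counts 20 genes were called there and 10 in PreIR-NTN against PreIR-GFP, and with the fit confined to the 2 groups compared 0 in both (1007 and 815 unadjusted). Without PreIR-GFP 1 and PreIR-GFP 2 the counts were 1, 1 and 5. Without NonIR 2 and PreIR-GFP 5, a setting chosen after seeing the data, they were 0, 0 and 0 (940, 962 and 1023 unadjusted). With 1 library left out in turn they ran from 0 to 17, from 0 to 11 and from 0 to 4. Pairs of members past the threshold ran from 0 to 1, the 1 being Ccl8 with Ccl5 without PreIR-GFP 5. The cause of these shifts was not tested.

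Replicate numbers did not pair the samples: 3 of 11 same-numbered pairs of libraries had a correlation over 0.1, and 1 of 13 libraries correlated best with its own number. With the replicate block edgeR called 0, 0 and 0 genes (1084, 691 and 879 unadjusted). The block turned Ccl5 to -0.30 in PreIR-GFP against NonIR and -0.23 in PreIR-NTN against NonIR, and Cxcl9 to -0.017 in PreIR-NTN against PreIR-GFP.

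Reversals were in fold changes near 0 or resting on 1 library, all on the log2 scale. For Ccl5 in PreIR-GFP against NonIR, limma-voom gave -0.087, the deposited signal with pseudocounts of 0.5 and 1 gave -0.078 and -0.048, and mean log2 CPM gave -0.10. In PreIR-NTN against NonIR the same settings gave -0.099, -0.082, -0.054 and -0.10. In PreIR-NTN against PreIR-GFP they gave -0.012, -0.0033, -0.0057 and -0.0013. For that last comparison Ccl5 was also -0.36 without PreIR-GFP 1 and PreIR-GFP 2, and -0.041 without NonIR 2 and PreIR-GFP 5. Cxcl9 in PreIR-NTN against PreIR-GFP was -0.017 with limma-voom, -0.018 with mean log2 CPM and -0.062 without PreIR-GFP 1 and PreIR-GFP 2. Without NonIR 2 and PreIR-GFP 5, Cxcl9 was 0.40 in PreIR-GFP against NonIR and 0.63 in PreIR-NTN against NonIR. Ccl28 in PreIR-NTN against PreIR-GFP was 0.063 without PreIR-GFP 1 and PreIR-GFP 2. With 1 library left out, Ccl5 ran from -0.21 to 0.37 in PreIR-GFP against NonIR, from -0.38 to 0.34 in PreIR-NTN against PreIR-GFP and from -0.25 to 0.38 in PreIR-NTN against NonIR. Cxcl9 ran from -1.34 to 0.51, from -0.14 to 0.23 and from -1.25 to 0.60 in the same order. Cxcl10 ran from -0.12 to 1.12 in PreIR-NTN against PreIR-GFP, and Ccl11 from -0.028 to 0.21 in PreIR-GFP against NonIR.

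At under 1 CPM in most libraries, Cxcl9, Cxcl10 and Cxcl13 rest on few reads, as low as 1 read for Cxcl10, which limits the precision of their fold changes.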
